A study of Mus musculus with 24 samples.

Results

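The CXC chemokines of pancreatic stellate cells (PSC) were followed as 9 genes, namely Cxcl1, Cxcl2, Cxcl3, Cxcl5, Cxcl10, Cxcl12, Cxcl14, Cxcl16 and the CX3C ligand Cx3cl1, taken by gene symbol from 53801 genes with a deposited value. PSC are the resident mesenchymal cells of the pancreas that become fibroblasts on activation. The donors were wild-type C57BL/6J mice 7 to 10 weeks old, with pancreata pooled per isolation, and the cells were used at early passage and sequenced as 24 libraries in 8 groups with n = 3 replicates each. KPC cells, a murine pancreatic cancer line, were the co-culture partner, so that all tumor signals came from 1 line. In the standard (distant) model, PSC on an insert membrane with 1 µm pores stood above KPC cells at the bottom of the well for 24 h or 72 h. In the inverse (close) model, the KPC cells grew on the underside of that membrane, again for 24 h or 72 h, and had already shared the insert with the PSC for 24 h before the start. Each model and time had its own mono-cultured PSC without KPC cells as control. Libraries were made from 450 ng of total RNA in the standard and from 120 ng in the inverse model. Standard PSC were seeded in a low-glucose medium that was changed at the start, whereas inverse PSC had the later medium from seeding. RNA input, medium and the earlier shared time cannot be told apart from the model itself. The labels do not tie the replicates of a group to separate isolations, so that p-values measure the spread between these libraries. Values are FPKM, that is fragments scaled to transcript length and to the library total.

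Chemokines are small secreted proteins that direct migrating cells through G protein-coupled receptors. Cxcl1, Cxcl2, Cxcl3 and Cxcl5 carry the ELR motif and draw neutrophils through Cxcr2, and their genes are classic targets of NF-kB downstream of IL-1, TNF and IL-17. Cxcl10 is an interferon-inducible ligand of Cxcr3 on T cells, and Cxcl12 is the ligand of Cxcr4 and of the scavenging receptor Ackr3. Cxcl14 is an epithelial and fibroblast chemokine whose receptor is still debated. Cxcl16 and Cx3cl1 are made as transmembrane proteins, bind Cxcr6 and Cx3cr1, and are shed by the proteases Adam10 and Adam17. In pancreatic cancer, fibroblasts with high chemokine and cytokine production are known as inflammatory cancer-associated fibroblasts (iCAF).

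The 4 ELR genes lay within 146.6 kb on the plus strand of mouse chromosome 5 (GRCm38), in the order Cxcl5 (90759360 to 90761624), Cxcl3 (90786103 to 90789600), Cxcl1 (90891241 to 90893115) and Cxcl2 (90903871 to 90905938). Cxcl10 was on the minus strand of the same chromosome at 92346638 to 92348889. Each of the other genes lay on a chromosome without another of the 9, Cxcl12 on chromosome 6 (117168535 to 117181367, plus), Cxcl14 on chromosome 13 (56288643 to 56296551, minus), Cxcl16 on chromosome 11 (70453983 to 70459984, minus) and Cx3cl1 on chromosome 8 (94772009 to 94782427, plus). RefSeq promoter sequences (build GRCm38.p6) were found for 7 of the 9 genes, without Cxcl5 and Cxcl16. In the 250 bases before the gene start, the kB letters GGGNNNTTCC were searched on both strands, and 4 of the 7 genes held them, against 4.65% of 32851 promoters of the same length. The 4 promoters are shown because they share these letters. Capitals mark kB matches and, in Cxcl10, also the interferon element GAAANNGAAA. Each is written 5′ to 3′ on the gene's strand.
Cxcl1 (chr5:90891135-90891214, plus): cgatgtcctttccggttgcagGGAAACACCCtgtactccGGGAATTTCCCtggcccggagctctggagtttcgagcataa
Cxcl2 (chr5:90903789-90903868, plus): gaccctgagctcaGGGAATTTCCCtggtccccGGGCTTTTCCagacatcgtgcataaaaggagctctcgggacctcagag
Cxcl3 (chr5:90785991-90786070, plus): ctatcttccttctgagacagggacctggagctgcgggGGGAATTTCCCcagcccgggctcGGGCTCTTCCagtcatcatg
Cxcl10 (chr5:92348980-92349129, minus): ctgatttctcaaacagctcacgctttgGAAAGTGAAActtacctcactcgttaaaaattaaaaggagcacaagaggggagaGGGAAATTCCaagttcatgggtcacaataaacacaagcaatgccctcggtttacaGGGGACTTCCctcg
The 3 ELR promoters shared the match GGGAATTTCC, which overlaps a match on the opposite strand with an offset of 1 base. Distances are counted from the RefSeq start, which differs from the gene starts given above. The match began 71 bases before it in Cxcl1, 97 in Cxcl2 and 73 in Cxcl3. Cxcl10 had kB matches 159 and 104 bases before its start and the interferon element 213 bases before it. GAAANNGAAA occurred in 2.98% of all promoters and also in that of Cxcl14, 172 bases before the start. These are letter matches and not measured binding.

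Cxcl12 was the most abundant chemokine, with FPKM between 25.4 and 458 and a median of 174 over the 24 libraries. Cxcl1 followed with a median of 37.7, Cx3cl1 with 30.0, Cxcl16 with 18.7, Cxcl5 with 12.2 and Cxcl14 with 4.84. Cxcl2 had a median of 0.923 and exceeded FPKM 1 in 11 libraries, and Cxcl10 had a median of 0.441 and exceeded it in 9. Cxcl3 never did. Its highest value was 0.381, from 16 fragments, and it was listed at 0 in 11 libraries. Thus 8 of the 9 genes passed the filter over the 24 libraries (FPKM above 1 in 3 or more), as did 14452 of all genes. FPKM used the mean transcript length of each gene (972 bases for Cx3cl1 and 3382 for Cxcl12), and the order between genes depends on these lengths. Cxcl1, Cxcl2 and Cxcl3 are related in sequence, and multi-mapping reads were not counted, so their levels are uncertain to that extent.

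Markers of stellate cells and fibroblasts were present at widely differing levels. Acta2, the smooth muscle actin of activated PSC, lay between 476 and 5963, Col1a1 between 4918 and 10708, Des between 26.2 and 87.8 and Vim between 706 and 1994, whereas Gfap, often used to name PSC, stayed at or below 0.237. Tagln, from the same marker list, lay between 10.0 and 56.3 FPKM. The paper reports positive GFAP staining of its PSC, which the low Gfap RNA here does not mirror. The 24 libraries held 15932733 to 24798748 fragments. Markers of other cells were present as well. The 16 macrophage and leukocyte markers, all above the filter, summed to 495 to 1633 FPKM in the 4 standard libraries numbered 2 and to 45.8 to 217 in the other standard libraries. The inverse libraries had a sum of 86.0 to 99.05 in the 24 h controls, 151 to 299 in the 72 h controls, 30.5 to 101 in the 24 h and 66.9 to 99.02 in the 72 h co-cultures. The 8 adipocyte markers summed to 636 to 1177 in the inverse 72 h controls and to 73.1 to 196 in their co-cultures. Of the 10 epithelial markers, Epcam, Cdh1 and Cldn4 were below 1 in all libraries, but the sum reached 46.1 in replicate 2 of the inverse 24 h co-culture, with Krt8 at 15.2, against at most 11.1 in any other library. Neutrophil and acinar markers were near 0, with sums up to 2.72 and 0.965. The part of these cells in the chemokine levels was not tested, and in bulk RNA fewer cells of a type and less RNA per cell cannot be told apart.

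**Figure D1:**
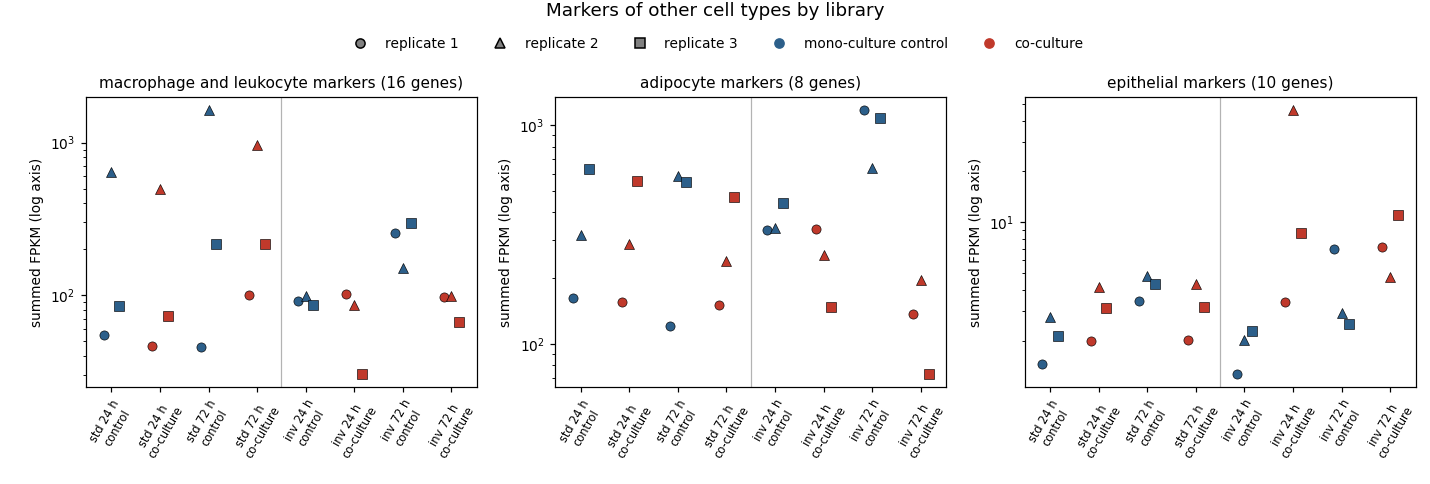
Summed FPKM (log axis) of macrophage and leukocyte, adipocyte and epithelial markers in each library of the standard (std) and inverse (inv) model, with symbols for the replicate number and colors for control (blue) and co-culture (red). The standard libraries numbered 2 carried the highest macrophage sums (495 to 1633), the inverse 72 h controls the highest adipocyte sums (636 to 1177), and 1 inverse 24 h co-culture an epithelial sum of 46.1.

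In the standard model, the replicate number set most of the chemokine level. Of the variation (sum of squares of log2(FPKM + 0.5)) of Cxcl1 over the 12 standard libraries, 72.0% lay between replicate numbers and 18.7% between the 4 groups. For Cxcl12 the shares were 91.6% and 1.496%, for Cxcl2 87.1% and 6.56%, for Cxcl10 86.7% and 3.75%, for Cxcl5 79.7% and 16.4%, and for Cxcl16 70.4% and 6.65%. The median gene had 40.5% between numbers and 21.5% between groups. Cxcl14 and Cx3cl1 differed in that the groups held 50.5% and 57.1% of their variation. Replicate 1 was the low one in all 4 groups for Cxcl1 (2.41 to 35.2 FPKM, against 121 to 165 in replicate 2) and Cxcl12 (33.0 to 87.4 against 288 to 458). Across all genes, the deviations of same-numbered standard libraries from their group means correlated with r between 0.267 and 0.771 in every pair, so that the numbers were treated as pairs there. Among the inverse libraries r lay between -0.121 and 0.162, and the numbers did not pair the libraries. Even so, 73.5% of the variation of Cxcl1 lay between inverse replicate numbers, against 7.97% for the median gene.

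**Figure D2:**
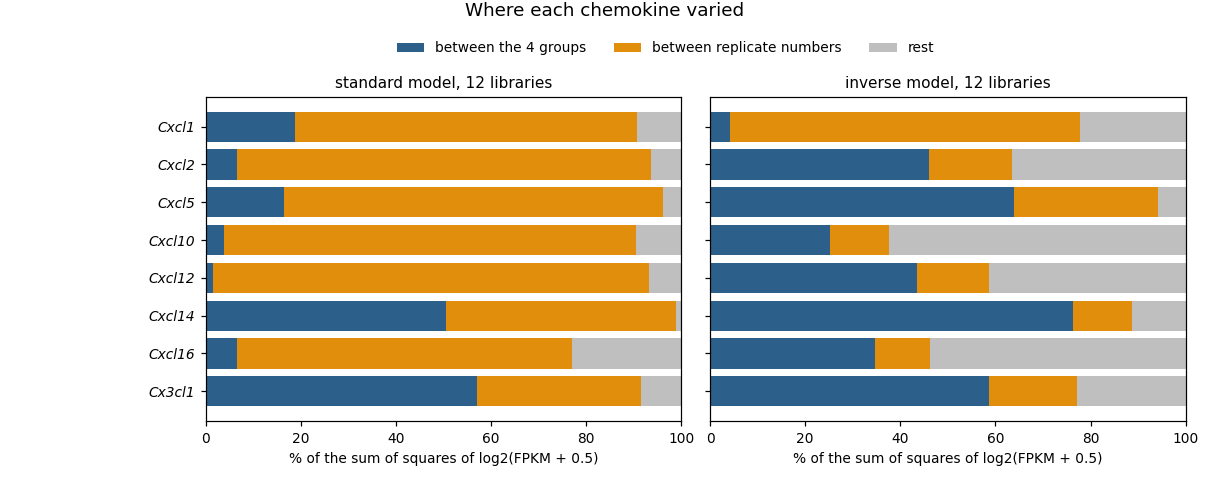
Share (%) of the sum of squares of log2(FPKM + 0.5) of 8 chemokines that lay between the 4 groups, between replicate numbers and in the rest, over the 12 libraries of each model. The standard replicate share ran from 34.5% (Cx3cl1) to 91.6% (Cxcl12), and in the inverse model the group share was largest for Cxcl14 (76.2%).

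**Figure D3:**
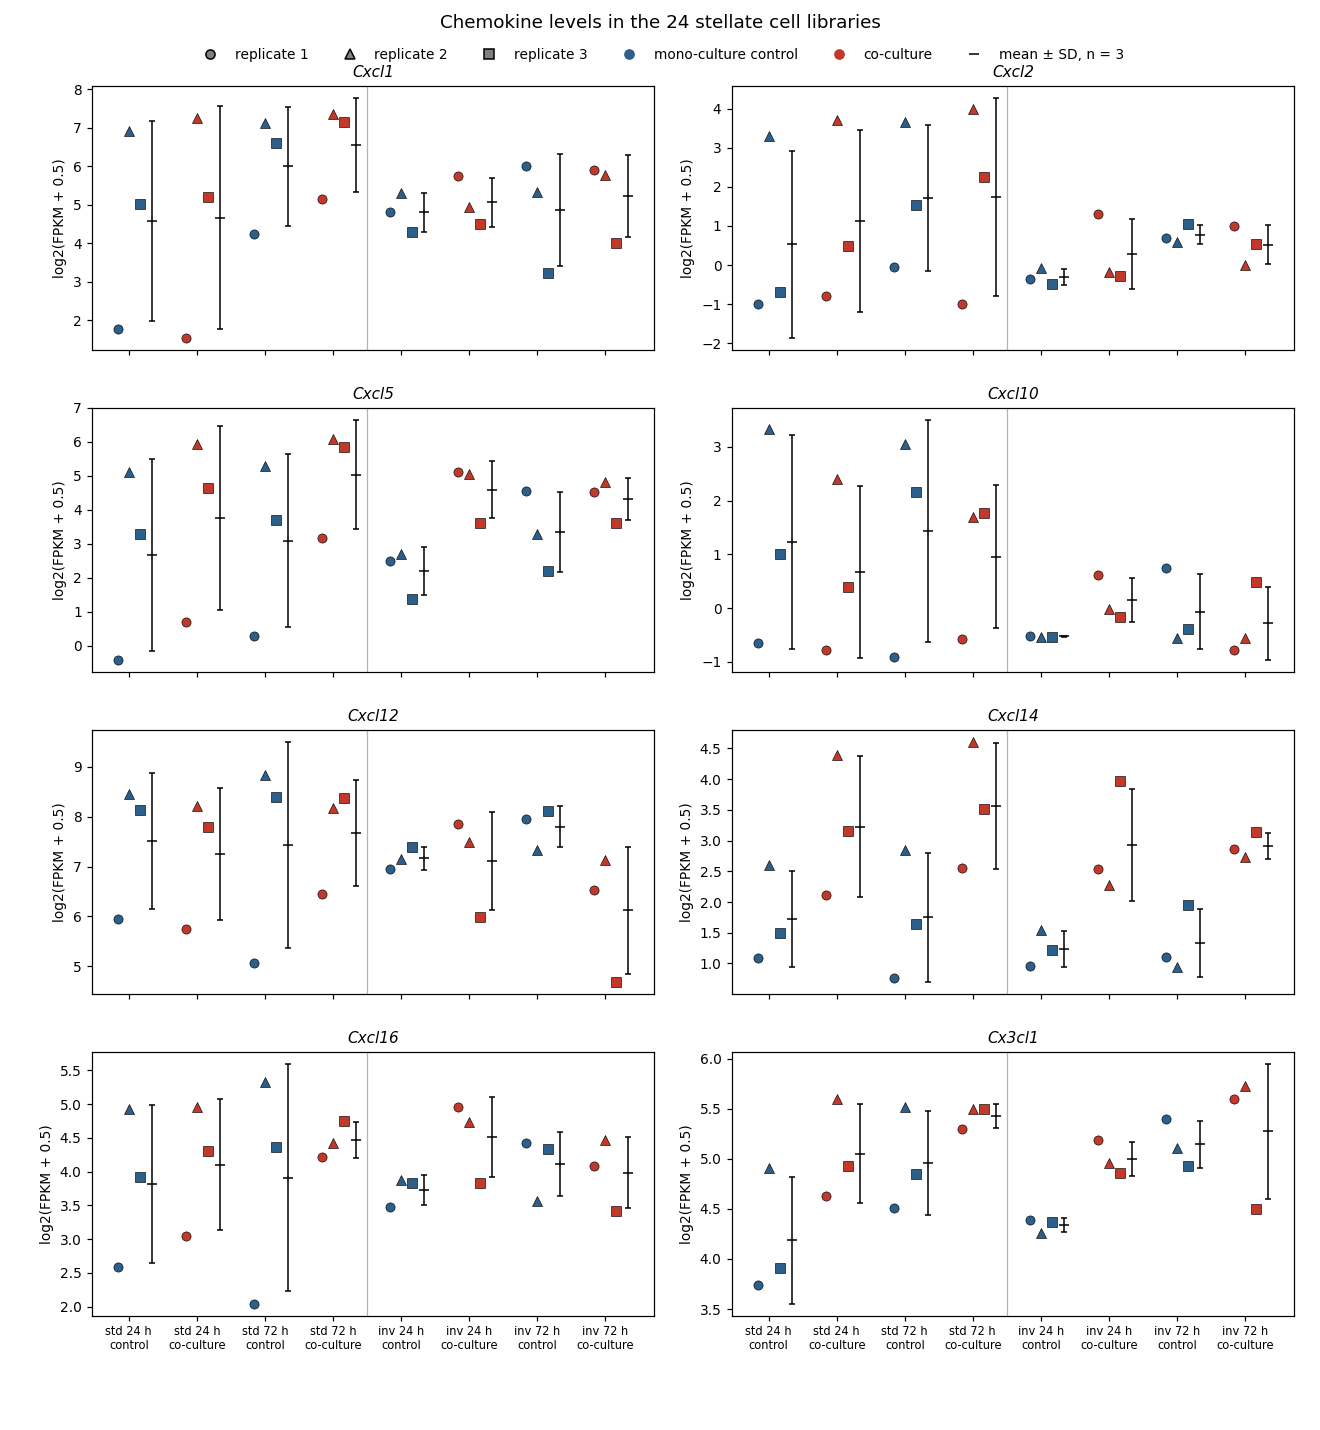
log2(FPKM + 0.5) of 8 chemokines in each of the 24 libraries, standard (std) model on the left and inverse (inv) on the right of each panel, with mean and SD (n = 3) beside the points; blue marks mono-culture control, red co-culture, and the symbol the replicate number. Cxcl14 was higher in co-culture than in control in every same-numbered comparison, and replicate 1 of the standard model (circles) was low for Cxcl1, Cxcl5, Cxcl10 and Cxcl12.

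The first question was which chemokines differed between PSC co-cultured with KPC cells and mono-cultured PSC. Cxcl14, Cxcl5, Cx3cl1 and Cxcl1 were higher with KPC cells in all 4 comparisons by their mean. In the inverse model, Cxcl5 and Cx3cl1 were called at 24 h and Cxcl14 at 72 h, whereas Cxcl1 was called in no comparison. At 24 h in the standard model, 0 of 7 tested chemokines passed an adjusted p of 0.05 in limma's moderated test, where 0.0% of 12859 genes passed, and at an unadjusted p under 0.05 also 0 did. With the replicate number as a block, 3 of the 7 passed (Cxcl5, Cxcl14 and Cx3cl1, all up), against 1.22% of all genes. At 72 h, 0 of 8 passed without the block (0.0% of 12863 genes; 1 at an unadjusted p under 0.05) and 0 with it (0.00777% of all genes; 3 unadjusted). limma voom on fragment numbers recovered from the FPKM also called 0 in both comparisons without the block. In the inverse model, 2 of 6 passed at 24 h (Cxcl5 and Cx3cl1, both up), against 2.47% of 12827 genes, and 1 of 7 at 72 h (Cxcl14, up), against 12.8% of 13066 genes. Over the tested chemokines, the median was 0.29, 0.51, 0.72 and 0.13 on the log2 scale in these comparisons, and over all genes -0.01, -0.09, -0.06 and -0.16.

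**Figure D4:**
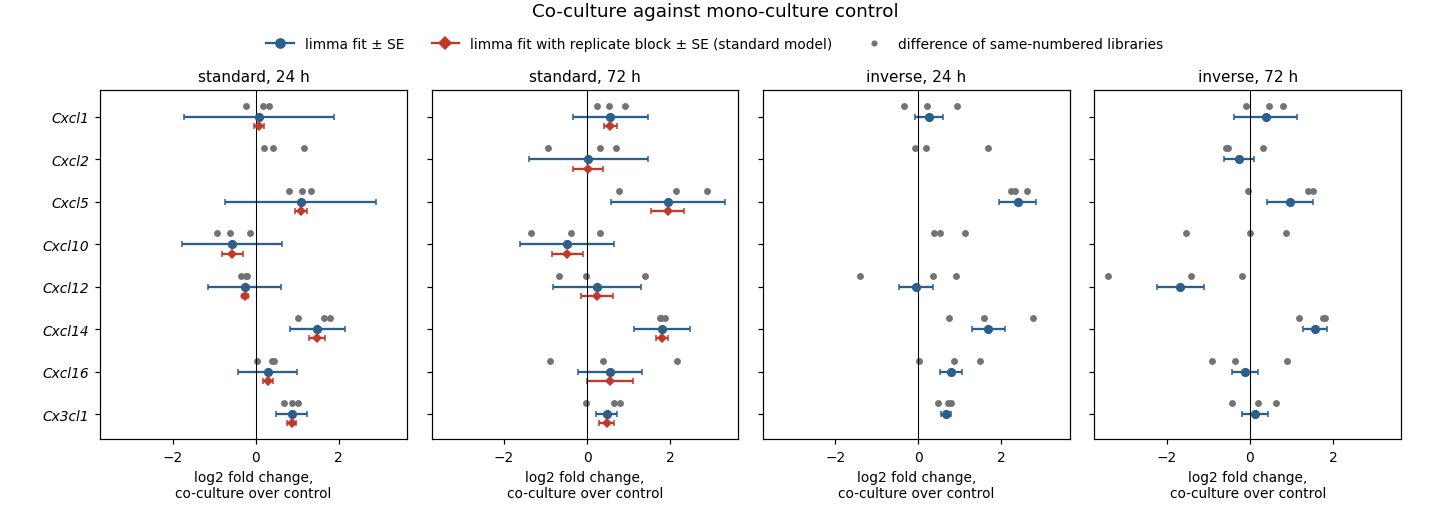
log2 fold change of co-culture over control for 8 chemokines in the 4 comparisons, from the limma fit (blue circles, ± SE), from the fit with the replicate block in the standard model (red diamonds, ± SE) and as the 3 differences of same-numbered libraries (grey points). Genes below the filter have grey points only. The block left the fold change as it was and narrowed the SE, for Cxcl5 at 24 h from 1.81 to 0.144.

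Cxcl14 was the chemokine with the steadiest difference. At 24 h in the standard model its FPKM was 3.81, 20.6 and 8.43 in co-culture and 1.63, 5.56 and 2.33 in control (replicates 1, 2 and 3). At 72 h it was 5.38, 23.9 and 10.9 in co-culture and 1.196, 6.72 and 2.63 in control. The groups overlapped, but each co-culture exceeded its same-numbered control. The log2 fold change was 1.49 at 24 h (SE 0.66, limma adjusted p = 1, and SE 0.19, adjusted p = 0.0274 with the replicate block). At 72 h it was 1.81 (SE 0.68, adjusted p = 0.767, and SE 0.15, adjusted p = 0.13 with the block). At 24 h in the inverse model, Cxcl14 was at 5.31, 4.37 and 15.1 in co-culture and at 1.45, 2.42 and 1.83 in control. At 72 h it was at 6.74, 6.17 and 8.32 against 1.65, 1.42 and 3.38. Here the groups did not overlap at either time, as for 21.2% of all genes at 24 h and 38.3% at 72 h. The log2 fold change was 1.69 at 24 h (SE 0.41, adjusted p = 0.0775) and 1.58 at 72 h (SE 0.29, adjusted p = 0.0163), the latter a rise that passed the test. Over the 12 inverse libraries, log2 Cxcl14 correlated with the log2 marker sums with r = -0.74 (adipocyte), -0.63 (macrophage) and 0.51 (epithelial). Over the 12 standard libraries r was 0.24, 0.66 and 0.5 in the same order. These values describe libraries that share groups and, in the standard model, replicate numbers. The part of these cells was not tested. Without replicate 1 of the inverse 72 h co-culture or of its control, the adjusted p was 0.0614 and 0.0629. Under all settings tried, the log2 fold change of Cxcl14 stayed between 0.90 and 2.35 in the 4 comparisons.

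Cxcl5 rose most in the close co-culture at 24 h, to 34.1, 32.6 and 11.8 FPKM from 5.11, 6.08 and 2.13 in control, with no overlap (log2 fold change 2.40, SE 0.44, limma adjusted p = 0.0308). Without replicate 2 of the co-culture, the library with the epithelial markers, it was 2.17 and the adjusted p 0.11. The call held only without replicate 3 of the co-culture (adjusted p = 0.00504) and was lost without any other of the 6 libraries, with log2 fold changes between 1.99 and 2.65. At 24 h with the replicate block, whose numbers do not pair the inverse libraries, the SE was 0.17 and the limma adjusted p 0.0111. Over the 12 inverse libraries, log2 Cxcl5 correlated with the log2 marker sums with r = 0.63 (epithelial), -0.28 (adipocyte) and -0.07 (macrophage). This describes libraries that share groups, and the part of these cells was not tested. Inverse Cxcl5 at 72 h was at 22.5, 27.7 and 11.8 in co-culture and 23.2, 9.26 and 4.14 in control, which overlapped (0.96, SE 0.56, adjusted p = 0.278). Standard-model Cxcl5 at 24 h was at 1.14, 60.3 and 24.3 in co-culture and 0.256, 34.4 and 9.32 in control. At 72 h it was at 8.59, 67.1 and 57.4 against 0.729, 38.7 and 12.5. The replicates spread over a far wider range than the groups, yet each co-culture lay above its same-numbered control. The log2 fold change was 1.09 at 24 h (SE 1.81, adjusted p = 1, and SE 0.14, adjusted p = 0.0289 with the block) and 1.94 at 72 h (SE 1.37, adjusted p = 0.826, and SE 0.40, adjusted p = 0.295 with the block). The blocked call at 24 h was lost without pair 3 (adjusted p = 0.0972), with a pseudocount of 0.1 (0.0504) and with voom (0.391).

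Of the other ELR ligands, Cxcl1 was tested in all 4 co-culture comparisons and Cxcl2 at 72 h only, and neither passed. Cxcl1 was at 2.41, 151 and 36.4 in the standard 24 h co-culture and at 2.93, 121 and 32.1 in its control. At 72 h it was at 35.2, 165 and 142 against 18.5, 140 and 97.6. Its inverse values were 53.7, 30.3 and 21.9 against 27.7, 39.0 and 18.9 at 24 h, and 59.7, 54.2 and 15.6 against 64.1, 39.6 and 8.81 at 72 h. All 4 pairs of groups overlapped, and the log2 fold changes ran from 0.09 to 0.56 with SE between 0.34 and 1.80. At 24 h in the standard model its 95% confidence interval reached from -4.28 to 4.46, so that a difference of several fold was not detectable without the block. With the block it was 0.09 (SE 0.13, adjusted p = 0.807). Cxcl2 exceeded FPKM 4 only in standard replicate 2 (9.27 to 15.3) and in replicate 3 of the 72 h co-culture (4.27), and it was at most 1.97 in the inverse libraries. Its log2 fold change at 72 h was 0.03 in the standard (SE 1.44, adjusted p = 0.997) and -0.26 in the inverse model (SE 0.35, adjusted p = 0.643), and at 24 h it was below the filter. Cxcl3, with 0 to 16 fragments per library, was below the filter throughout.

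Cxcl10, the interferon-inducible ligand, was low in most libraries. Its highest values were 9.57 and 7.77 FPKM in replicate 2 of the standard controls at 24 h and 72 h, against 4.77 and 2.74 in the same-numbered co-cultures. The other standard libraries held 0.0357 to 3.96. Its inverse values were 1.03, 0.487 and 0.396 in the 24 h co-culture, from 28, 14 and 8 fragments, and 0.200, 0.193 and 0.188 in the control, from 4 to 6 fragments. These 2 groups did not overlap, but Cxcl10 was below the filter there and was not tested. At 72 h the inverse values were 0.0796, 0.183 and 0.895 in co-culture and 1.17, 0.181 and 0.267 in control, which overlapped, with the lower mean in co-culture, and were not tested either. Its log2 fold change in the standard model was -0.56 at 24 h (SE 1.21, adjusted p = 1) and -0.48 at 72 h (SE 1.14, adjusted p = 0.962).

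Cxcl12 lay in a lower range in the close co-culture at 72 h. It was at 92.5, 140 and 25.4 FPKM there and at 248, 161 and 276 in control, and the groups did not overlap. The log2 fold change of -1.68 (SE 0.56, 95% confidence interval -2.98 to -0.38) had an adjusted p of 0.0853 and missed the threshold. Without replicate 2 or 3 of the co-culture it passed, with an adjusted p as low as 0.0345. At 24 h in the inverse model it was at 229, 181 and 62.9 in co-culture and at 123, 141 and 168 in control (-0.05, SE 0.40, adjusted p = 0.971). Its standard values were 53.3, 297 and 220 against 61.1, 350 and 280 at 24 h, each co-culture a little below its control (-0.26, adjusted p = 1, and 0.153 with the block). At 72 h it was at 87.4, 288 and 332 against 33.0, 458 and 337 (0.23, adjusted p = 0.981). Over the 12 inverse libraries, log2 Cxcl12 correlated with the log2 sum of the adipocyte markers with r = 0.86 and with that of the macrophage markers with r = 0.69, a description over libraries that share their groups. Both marker sums were lower in the inverse 72 h co-cultures than in their controls, and their part in the Cxcl12 values was not tested.

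Of the transmembrane chemokines, Cx3cl1 passed at 24 h only with the replicate block in the standard model and only without it in the inverse model. No single fit called it in both models. In the inverse model it was at 35.9, 30.7 and 28.4 FPKM in co-culture and at 20.47, 18.7 and 20.2 in control, without overlap. The log2 fold change was 0.66 (SE 0.12, limma adjusted p = 0.0319, and adjusted p = 0.111 with the block). Leaving out any 1 of the 6 libraries except replicate 3 of the co-culture ended this call as well, with adjusted p up to 0.133. In the standard model it was at 24.3, 47.9 and 30.0 against 12.9, 29.5 and 14.5 (0.87, SE 0.38, adjusted p = 1, and SE 0.10, adjusted p = 0.0233 with the block). At 72 h the co-cultures overlapped the controls, with 38.7, 44.8 and 44.6 against 22.2, 45.4 and 28.4 in the standard model and 47.8, 52.6 and 22.1 against 41.6, 33.9 and 30.0 in the inverse model. The log2 fold changes were 0.47 (SE 0.26, adjusted p = 0.799) and 0.13 (SE 0.31, adjusted p = 0.805). Cxcl16 was at 30.5, 26.1 and 13.8 in the inverse 24 h co-culture and at 10.6, 14.2 and 13.7 in control, with overlap (0.78, SE 0.27, adjusted p = 0.203). It passed only when replicate 3 of that co-culture was left out (adjusted p = 0.00907). In the other 3 comparisons its log2 fold change lay between -0.12 and 0.55, and its control values ranged from 3.63 to 39.5 in the standard model and from 10.6 to 20.98 in the inverse model. In the standard comparisons, 0 of the tested chemokines had groups that did not overlap, against 7.73% of all genes at 24 h and 13.1% at 72 h. Among the inverse comparisons it was 3 of 6 at 24 h (21.2% of all genes) and 2 of 7 at 72 h (38.3%).

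The second question was whether the response differed between the models or with time. The models differ in distance, medium, earlier shared time and RNA input, which cannot be told apart in this contrast. The fit over all 24 libraries called 0 of 8 chemokines for the difference between the inverse and the standard co-culture effect at 24 h (0.0% of 14452 genes) and 0 of 8 at 72 h (0.0% of 14452). For the difference between 72 h and 24 h, 0 of 8 passed in the standard model (0.0% of 13694 genes, also 0 with the block, where 0.0% passed) and 0 of 7 in the inverse model (0.0% of 13722). No chemokine had an unadjusted p under 0.05 in any of these 4 fits, and voom called 0 as well. With the replicate block, limma also called 0 of 8 for the difference between models at either time (0.0% of all genes at 24 h and 0.111% at 72 h), while Cxcl5 at 24 h (1.31, SE 0.53, adjusted p = 1) and Cxcl12 at 72 h (-1.91, SE 0.67, adjusted p = 0.426) had an unadjusted p under 0.05. The intervals without the block were wide. The difference between models for Cxcl14 was 0.20 at 24 h (95% confidence interval -1.63 to 2.02) and -0.23 at 72 h (-2.05 to 1.60), and for Cx3cl1 it was -0.21 (-1.17 to 0.76) and -0.34 (-1.31 to 0.62). For Cxcl5 it was 1.31 at 24 h (-2.78 to 5.40) and -0.98 at 72 h (-5.07 to 3.12). For Cxcl12 it was -1.91 at 72 h (-4.60 to 0.77). Between 24 h and 72 h the inverse co-culture effect differed by -1.62 for Cxcl12 (-3.33 to 0.08), -1.43 for Cxcl5 (-3.20 to 0.33) and -0.91 for Cxcl16 (-1.90 to 0.09), none past the threshold (adjusted p = 0.482, 0.543 and 0.495).

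Mono-cultured PSC also changed with time in culture. In the inverse controls, Cx3cl1 rose from 19.8 ± 0.951 to 35.2 ± 5.91 FPKM (SD, n = 3) between 24 h and 72 h (log2 fold change 0.80, SE 0.13, limma adjusted p = 0.00491). Cxcl2 rose from 0.314 ± 0.118 to 1.23 ± 0.302 (1.09, SE 0.32, adjusted p = 0.0464), from 5 to 15 and 24 to 51 fragments. Cxcl2 passed the filter only through the 72 h controls, so that its test depended on the group in which it was high. These 2 of 7 tested chemokines passed, against 19.2% of 13092 genes, and the same 2 had groups that did not overlap, against 39.7%. The Cxcl2 call was lost without any 1 of the 24 h controls and with a pseudocount of 0.1, and without any 1 of the 72 h controls Cxcl2 fell below the filter and was not tested. The Cx3cl1 call held without each of the 6 libraries. Cxcl12 was at 144 ± 22.9 and 228 ± 60.01 and did not pass (0.64, adjusted p = 0.0548), although it did with voom, with a mean FPKM above 5 and without replicate 2 of the 72 h controls, nor did Cxcl14 (0.09, SE 0.32, adjusted p = 0.869). The macrophage marker sum was higher at 72 h in these controls as well, and 9 of its 11 tested genes rose. The adipocyte sum went from 331 to 444 at 24 h up to 636 to 1177, with 5 of 7 tested genes up, and of 14 tested stellate and fibroblast markers 2 rose and 5 fell. The part of these markers in the Cxcl2 and Cx3cl1 values was not tested. In the standard controls, 0 of 8 chemokines passed (0.0% of 12963 genes) and 0 with the block (0.0%), although Cx3cl1 was higher at 72 h in each pair (0.77, adjusted p = 0.336 with the block). Between the controls of the 2 models, 0 of 6 passed at 24 h (0.0% of 12903 genes) and 0 of 8 at 72 h (0.0% of 13106), and none had an unadjusted p under 0.05.

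With 3 libraries a group, few of the 8 group levels stood apart. When the groups were ordered by their mean log2 level, 1 of 7 neighbouring gaps exceeded the pooled SD of both groups for Cxcl14, between the inverse 72 h co-culture and the standard 72 h control, with all 4 co-cultures above all 4 controls. For Cx3cl1 it was 1 of 7, between the standard 72 h control and the inverse 24 h control, with both 24 h controls lowest. For the other 7 chemokines it was 0 of 7.

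In the standard model the chemokines moved together over the 12 libraries, and in the inverse model less so. Pearson's r of log2(FPKM + 0.5) was 0.92 between Cxcl1 and Cxcl5, 0.84 between Cxcl1 and Cxcl2, and 0.91 between Cxcl10 and Cxcl12 in the standard model. Over the inverse libraries the same pairs had r = 0.66, 0.17 and -0.04, and the highest value was 0.73 between Cxcl5 and Cx3cl1. Cxcl12 and Cxcl14 had r = 0.58 in the standard and -0.58 in the inverse model. The libraries of a model share groups and, in the standard model, replicate numbers, so these values describe the libraries. In the standard model, Cxcl2 followed the macrophage marker sum with r = 0.93 and Cxcl10 with 0.89. The other chemokines above the filter did so as well, with r from 0.66 (Cxcl14) to 0.82 (Cxcl1). The inverse values were 0.53 for Cxcl2 and 0.09 for Cxcl10, and from -0.63 (Cxcl14) to 0.69 (Cxcl12) for the others.

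**Figure D5:**
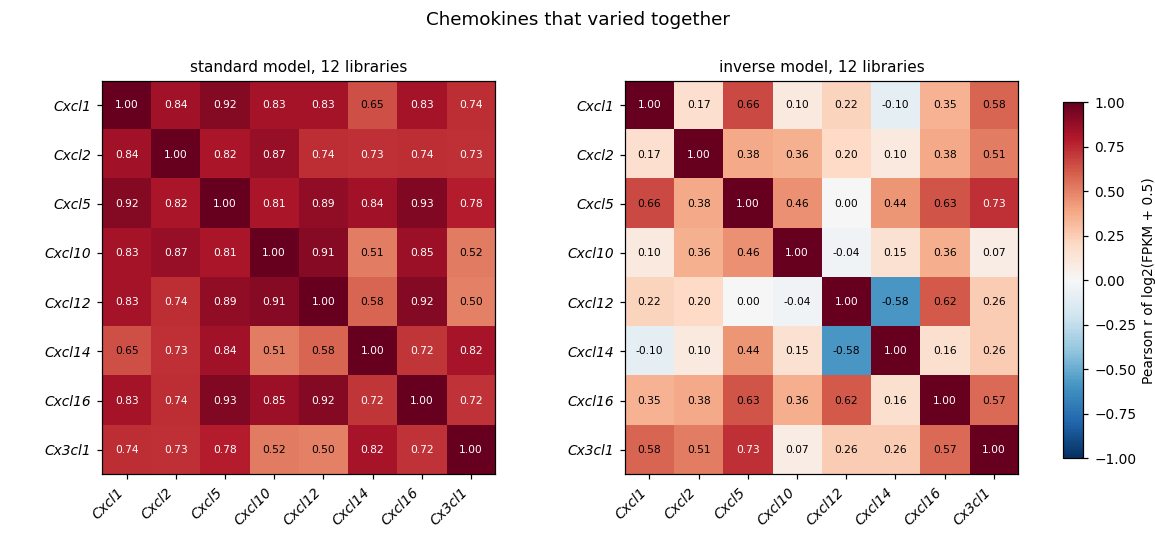
Pearson's r of log2(FPKM + 0.5) between 8 chemokines over the 12 libraries of the standard model (left) and of the inverse model (right), on a color scale from -1 to 1. All standard values lay at or above 0.50, whereas the inverse values ran from -0.58 to 0.73.

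Over all 24 libraries, the genes with the pattern most like each chemokine were as follows, given by Pearson's r. For Cxcl1 they were Nr4a1 (0.96), Ccnl1 (0.95) and Nfkbiz (0.93), among them an immediate early gene and an NF-kB cofactor. For Cxcl2 they were Ccl3 (0.94), Ly86 (0.92) and Tnfaip3 (0.92). For Cxcl5 they were Cyp7b1 (0.96), Il33 (0.94) and Serpina3g (0.94), and for Cxcl10 Col6a5 (0.92), Mgat4a (0.92) and Nfkbie (0.92). Cxcl12 was nearest to Lrpap1 (0.94), Dpt (0.94), which encodes dermatopontin, and Steap4 (0.93). Cxcl14 was nearest to Ch25h (0.90), Mmp10 (0.89) and Tnfaip6 (0.87). Cxcl16 was nearest to Tmem176b (0.96), Tmem176a (0.95) and Ctsb (0.94), and Cx3cl1 to Ccl11 (0.92), Begain (0.91) and Stat3 (0.91). None of the chemokines was among the 3 nearest genes of another one.

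The signaling receptors of these chemokines were near 0 in the PSC libraries, whereas the atypical receptors Ackr1, Ackr3 and Ackr4 were present. The atypical receptor Ackr2 reached at most 0.101 FPKM. Of 11 receptor genes, Cxcr2, the neutrophil receptor of the ELR ligands, was listed at 0 in all 24 libraries, and Cxcr4 reached at most 1.17, Cxcr6 0.403 and Cx3cr1 2.55. The 3 that were tested were atypical receptors, which bind chemokines without the usual signaling, with medians of 32.5 (Ackr3), 5.40 (Ackr4) and 4.36 (Ackr1) FPKM. Ackr3, the scavenger of Cxcl12, fell in the close co-culture at 72 h, to 20.4 ± 8.94 from 46.8 ± 3.76 FPKM (SD, n = 3; log2 fold change -1.29, SE 0.33, limma adjusted p = 0.0415). Its log2 fold change was -0.75 at 24 h in the inverse model (adjusted p = 0.114), and -0.77 and -0.53 in the standard model (adjusted p = 1 and 0.882). Ackr4 was at 9.03 and 11.1 and Ackr1 at 7.45 and 3.03 in the inverse 72 h co-culture and control, without passing (adjusted p = 0.434 and 0.108).

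Of 5 tested proteases that shed or trim chemokines, 1 rose and 2 fell at 72 h in the close co-culture, where 12.8% of all genes were called. Dpp4, which truncates Cxcl10 and Cxcl12, rose to 86.0 from 32.8 FPKM (log2 fold change 1.43, SE 0.26, limma adjusted p = 0.0163). Adam17, a sheddase of Cx3cl1 and Cxcl16, fell to 24.3 from 43.2 (-0.82, SE 0.13, adjusted p = 0.00936), and Mmp14 fell to 467 from 733 (-0.65, SE 0.12, adjusted p = 0.0185). Adam10, the other sheddase, was at 63.7 and 69.3 (-0.12, adjusted p = 0.453) and Mmp2 at 759 and 1135 (-0.61, adjusted p = 0.101). In the other co-culture comparisons limma called 0 of 6 proteases (standard, 24 h), 0 of 5 (standard, 72 h) and 0 of 5 (inverse, 24 h), and 0, 1 and 3 had an unadjusted p under 0.05. Of 7 other CXC ligands, Pf4 and Cxcl13 were tested at least once, and limma called 0, with 1 (Pf4, inverse model at 24 h) at an unadjusted p under 0.05. In controls 1 and 2 of that comparison the 7 ligands summed to 0.740 and 0.534 FPKM. Pf4 thus passed the filter there mostly through the co-cultures, the group in which it was high. Pf4 was at 15.03 in the standard 72 h co-culture and 3.24 in its control (log2 fold change 2.26, SE 1.36, adjusted p = 0.799), and Cxcl13 at 12.1 and 8.24 (0.17, SE 1.75, adjusted p = 0.991).

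Of the 22 genes of NF-kB and IL-1, TNF and IL-17 input, 17 to 19 were tested and limma called 0 in each of the 4 co-culture comparisons, with 2 or 3 at an unadjusted p under 0.05. With the replicate block, Il1rn, the IL-1 receptor antagonist, and Il1r1, the IL-1 receptor, rose in the standard model at 24 h. The log2 fold changes were 2.12 (limma adjusted p = 0.0293) and 0.61 (adjusted p = 0.0233). These were 2 of 18 tested, against 1.22% of all genes, and at 72 h the block gave 0 of 18. At an unadjusted p under 0.05 there were 4 at 24 h and 6 at 72 h with the block. This list had medians of 0.10, 0.15, 0.18 and -0.03 (log2) in the order of the comparisons above. Of 15 tested genes of interferon input and response, 1 rose in the inverse model at 24 h (Ifnar2, 0.53, adjusted p = 0.0482). There 2.47% of all genes were called. At 72 h, where 12.8% were called, Ifnar2 (0.61, adjusted p = 0.0211) and Ifngr2 (0.57, adjusted p = 0.0411) rose, and Ifit3 fell (-1.77, adjusted p = 0.0492). In the standard model limma called 0 of 15 at either time, with or without the block. At an unadjusted p under 0.05 there were 1 and 4 without it and 5 and 10 with it. The share of all genes there was 2.89% and 6.22% without and 15% and 10.8% with the block. The medians of this list were 0.08, -0.47, 0.44 and -0.06 in the order of the comparisons above. Several genes from a list of 10 iCAF cytokines rose in the close co-culture. At 24 h 3 of 7 tested rose, where 2.47% of all genes were called, and at 72 h 5 of 8, where 12.8% were, and none of these genes fell. Ccl2 rose at 24 h (1.59, adjusted p = 0.0159), Il6 at both times (1.19 and 1.70, adjusted p = 0.0311 and 0.0482), and Il11 (1.65, adjusted p = 0.0498) and Has1 (1.49, adjusted p = 0.0458) at 72 h. The median of the list was 0.99 at 24 h and 1.16 at 72 h, against -0.06 and -0.16 for all genes. With the replicate block, whose numbers do not pair the inverse libraries, 1 gene of the list rose at 24 h and 2 at 72 h. The list is a selection of iCAF genes. Among its own iCAF signature genes, the paper reports both raised and lowered ones in the inverse co-culture, with gelsolin among the lowered. In the standard model limma called 0 of 8 iCAF genes at either time, with or without the block, and at an unadjusted p under 0.05 there were 0 without it and 6 and 5 with it.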

How the data were processed

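PSC RNA was sequenced (poly-A, paired-end) in 24 libraries. The authors aligned reads with HISAT2 2.0.5 to GRCm38 (mm10), counted them per gene with featureCounts 1.5.0-p3 and deposited FPKM per gene and library; their own test was DESeq2 1.20.0, whose results were not used here. Groups follow the labels. For the alternative with voom, fragment numbers were recovered from the FPKM steps; of values up to 20 fragments, 96.07% to 97.01% per library came out whole within 0.05, and 94.6% of genes above 0 were whole in all libraries. The main test was limma 3.58.1 (R 4.3.3; moderated, intensity trend, two-sided) on log2(FPKM + 0.5), which understates the change of low genes, for genes with FPKM above 1 in at least 3 libraries of the fit. p-values were Benjamini-Hochberg adjusted over all genes tested, with a threshold of 0.05. The fit was tested on data simulated for the inverse comparisons, with the spread of each gene capped below that of most chemokines here. That test therefore does not show how the fit performs on these genes.

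Deviations of same-numbered libraries from their group means correlated with r of 0.267 to 0.771 in the standard model, so the blocked fit is given there. Tables were made with Python 3.11.15, pandas 2.3.3 and numpy 2.4.6. The members and gene lists were chosen with earlier results of these data known. Named genes were all members, the tested other ligands, receptors and proteases, up to 4 genes that passed in each input list, and the 3 genes most correlated with each member. Alternatives changed the pseudocount, filter, scaling, trend, libraries, block and tool. An allele of the cancer line and 1 gene of the interferon list are not reported here.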

Additional observations from a re-analysis of the deposited data

Results flagged for a closer look

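Cxcl10 was singled out because all 3 same-numbered differences between co-culture and control at 24 h went down in the standard model and up in the inverse model. The difference between the models was 1.23 on the log2 scale (SE 1.40, 95% confidence interval -1.71 to 4.16), with an adjusted p of 1 in the limma fit over all 24 libraries. The inverse values rested on 4 to 28 fragments per library. In the standard model, replicate 1 rested on 2 fragments in co-culture and 4 in control, with a log2 difference of -0.13.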

How the results depend on the processing

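In the standard model at 24 h, the replicate block raised the chemokines called from 0 to 3. Settings combined with that block, chosen after seeing the data, gave 4, 3 and 2 without pair 1, 2 and 3, 3 with a pseudocount of 1, 2 with 0.1, 3 with scaling by the median of gene ratios and 2 with voom. In the inverse model at 24 h, the 2 calls became 0 without the filter, without the trend and with all 24 libraries in 1 fit, and 1 with the replicate block, whose numbers do not pair the libraries there; leaving out 1 library gave 0 to 4. At 72 h the 1 call became 0 with a mean FPKM above 5, where Cxcl14 was not tested, and 0 with all 24 libraries; leaving out 1 library gave 0 to 2. For the inverse controls over time, the 2 calls became 1 with a pseudocount of 0.1, 1 without the filter and 0 with all 24 libraries, 3 with voom (Cxcl12 added), 3 with the replicate block (Cxcl5 and Cxcl12 in place of Cxcl2), and 1 to 3 without 1 library; a mean FPKM above 5 gave Cxcl12 in place of Cxcl2. Between the 24 h controls of the models, leaving out 1 library gave 0 to 1 (Cxcl12, without standard control replicate 1). The block could not be fitted between models' controls.

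Of 512 values for single genes, 428 kept direction and call and 38 reversed, none of them past the threshold. Cxcl2 (standard, 72 h) turned to -0.45 with a pseudocount of 0.1, with or without the replicate block, and to -1.10 with voom, and Cxcl10 there to 0.12 with voom. Scaling turned Cxcl12 (inverse, 24 h) to 0.01 and Cxcl16 (inverse, 72 h) to 0.04. With the block, Cxcl1 (24 h) turned to -0.03 without pair 2, and Cxcl12 and Cxcl16 (72 h) to -0.35 and -0.26 without pair 1. Without 1 library, the ranges in the standard model at 24 h were -1.31 to 1.65 for Cxcl1, -0.45 to 2.61 for Cxcl5, -1.49 to 0.17 for Cxcl10, -1.04 to 0.49 for Cxcl12 and -0.32 to 0.85 for Cxcl16. At 72 h they were -0.32 to 1.26 for Cxcl1, -1.09 to 1.40 for Cxcl2, -1.64 to 0.33 for Cxcl10, -0.95 to 0.94 for Cxcl12 and -0.38 to 1.26 for Cxcl16. In the inverse model they were -0.09 to 0.55 for Cxcl1 and -0.42 to 0.51 for Cxcl12 at 24 h, and -0.44 to 0.99 for Cxcl1, -0.39 to 0.16 for Cxcl16 and -0.10 to 0.52 for Cx3cl1 at 72 h. The cause was not tested.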
